A study of Mus musculus with 10 samples.

Results

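The AMPA and kainate classes of ionotropic glutamate receptor were followed in dorsal root ganglia (DRG), the clusters of somatosensory neurons and their glia beside the spinal cord. The genes were chosen by family: *Gria1*, *Gria2*, *Gria3* and *Gria4* for the AMPA receptor subunits, *Grik1*, *Grik2*, *Grik3*, *Grik4* and *Grik5* for the kainate receptor subunits, and *Gsg1l*, an accessory subunit of AMPA receptors. These are 10 of the 55414 genes listed for every library, of which 26575 to 28734 had a count in a given library. Each of the 10 passed the filter on low counts. *Gsg1l* was added because the study singled it out from these same libraries, so its direction here is no independent evidence.

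Bulk RNA-sequencing compared E18.5 DRG of 5 control with those of 5 *WD1* cKO embryos, late in gestation, to ask which transcripts change without the transcription factor Dach1. *WD1* cKO embryos carried Wnt1 Cre/+ and Dach1 flox/flox, so that Cre recombinase removed the floxed exon of *Dach1* in the neural crest. The neural crest is the source of both the neurons and the glia of the DRG. Controls were littermates without Cre, and the floxed line was kept on a mixed C57Bl/6J and CD1 background. The labels' genotype field contradicts the titles, with each group carrying the other's genotype, and the titles were followed. *Dach1* itself had 35.02 to 41.6 CPM (counts scaled to a common library size) in control libraries and 19.1 to 20.7 CPM in *WD1* cKO libraries. It was lower in all 5 *WD1* cKO libraries (edgeR, adjusted p = 5.48e-06), as the titles have it. Counts per gene do not separate the floxed exon from the rest of the transcript. By immunostaining the study found Dach1 protein lost by E18.5. Whole ganglia were sequenced, so fewer cells of a type and less RNA per cell cannot be told apart.

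AMPA and kainate receptors are glutamate-gated cation channels, each built from 4 subunits drawn from their own class. AMPA receptors carry most fast excitatory transmission in the central nervous system, and the GluA2 subunit, from *Gria2*, makes them nearly impermeable to calcium once its messenger RNA has been edited by the enzyme ADAR2. Kainate receptors are formed by GluK1 to GluK3, which make channels on their own, and by GluK4 and GluK5, which need a partner of the first kind. Somatosensory neurons of the DRG are a classical source of kainate currents, carried mainly by GluK1. GSG1L, a member of the claudin-like family, binds AMPA receptors and slows their recovery from desensitization.

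The coding sequence around the edited position is given here because it shows what the subunit transcripts share and where they can differ after transcription. The 30 bases below run 5′ to 3′ in the coding strand, were taken from the longest protein-coding transcript of each gene in GENCODE M21 (GRCm38), and hold in capitals the codon of the pore-loop glutamine, or Q/R site. In each subunit this codon lies 29 codons before a conserved motif of the channel gate.
Gria1: gccttcatgCAGcaaggatgtgacatttcc
Gria2: gcctttatgCAGcaaggatgcgatatttcg
Gria3: gcttttatgCAGcaaggatgtgatatttct
Gria4: gcctttatgCAAcaaggatgtgacatttca
Grik1: gctctcatgCAGcaaggatcggagctgatg
Grik2: gctctcatgCAGcaaggttctgagctcatg
Grik3: tccctgatgCAGcaaggatctgaactgatg
Grik4: ggcttcatgCAGcaaggctccactattgcc
Grik5: ggcttcatgCAGcagggctcggagatcatg
The codon was CAG in 8 of the 9 subunit genes and CAA, the other glutamine codon, in *Gria4*. Editing of the central base of this codon, which replaces glutamine by arginine, is known for *Gria2*, *Grik1* and *Grik2*. The 4 AMPA windows were close to each other, with 26 to 27 of 30 bases of *Gria1*, *Gria3* and *Gria4* equal to *Gria2*. Among the kainate subunits, *Grik2* shared 27 and *Grik3* 25 of 30 bases with *Grik1*, while *Grik5* shared 23 and *Grik4* 17. Counts per gene carry no information on editing, which was not measured here.

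Before the values, some features of the libraries need stating. Control libraries held 20465132 to 27528784 counts and *WD1* cKO libraries 19757596 to 34796562. Counts of the receptor genes ranged from 160 for *Grik3* to 23572 for *Grik1*, and no library listed any of them at 0. The 10 pan-neuronal markers summed to 9843 to 11900 CPM in control and 10880 to 12420 CPM in *WD1* cKO libraries. In the same order, the 10 Schwann cell and satellite glia markers summed to 1233 to 1443 CPM and 1209 to 1578 CPM. The 8 markers of A-type low-threshold mechanoreceptors summed to 1317 to 1475 CPM and 1360 to 1451 CPM. Of these 8, 4 had an unadjusted p under 0.05 in edgeR, where 4.5% of all genes tested did. *Calb2* (log2 fold change -2.06) and *Ntrk2* (-0.18) were lower, and *Shox2* (0.30) and *Mafa* (0.34) higher. The study named *Calb2* and *Shox2* from these same libraries. All 6 skeletal muscle markers were lower, none with such a p. Control replicate 3 stood apart in several ways, with the lowest pan-neuronal sum, the highest sum of 5 connective tissue markers (5749 CPM, against 4113 to 5349 CPM in the other libraries), the lowest sum of 3 proprioceptor markers (189.9 CPM, against 253 to 332 CPM) and 7 of 10 spinal cord markers at their highest. The pan-neuronal markers were not all low in control replicate 3. *Nefm* (1781 CPM), *Nefl* (1404 CPM), *Prph* (2083 CPM) and *Snap25* (276 CPM) had their lowest values there. *Elavl3* (337 CPM) and *Pou4f1* (174 CPM) had their highest there. All 10 spinal cord markers summed to 109.9 CPM there and to 79.9 to 103 CPM in the other libraries, mostly from *Pdgfra* and *Aqp4*, which every library held, while the 8 others summed to 17.7 CPM there and to 0.168 to 1.59 CPM elsewhere. *Slc6a5*, the glycine transporter of inhibitory neurons, was at 4.65 CPM in control replicate 3, and no *WD1* cKO library exceeded 0.364 CPM, while *Mnx1*, of spinal motor neurons, was at 0 in control replicate 3. Replicates numbered 4 and 5 differed from those numbered 1 to 3 in both groups. In control libraries 34.9% of all genes tested had replicates 4 and 5 wholly outside the range of 1 to 3, and 35.1% did so in *WD1* cKO libraries. With 5 libraries per group many genes show such a split by chance, and that share was not tested. The labels name no batch for this split, and values within each set are therefore given where a sign or a call differed. The 5 blood markers summed to 1070 to 2461 CPM in control replicates 1 to 3 and 154.7 to 182 CPM in control replicates 4 and 5, and to 509 to 1133 CPM and 189 to 242 CPM in *WD1* cKO libraries. The glial sums lay the other way, higher in replicates 4 and 5 of both groups. *Xist*, the X-inactivation transcript of female cells, was abundant in control replicates 2 and 5 and in *WD1* cKO replicates 1, 3, 4 and 5. Sex was therefore not balanced between the groups.

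The level of each gene in control embryos was compared per kilobase of exons, since a longer transcript collects more reads. *Grik1* was the highest at 99.1 ± 9.86 CPM per kilobase (SD, n = 5), a level above 98.5% of the 17449 tested genes with a known length. *Grik5* followed at 25.9 ± 1.53 CPM per kilobase. Both kainate subunits lay above every AMPA subunit in every control library.

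*Gria4* was the most abundant AMPA subunit at 12.8 ± 0.949 CPM per kilobase, and *Gsg1l* stood next to it at 12.1 ± 1.19 CPM per kilobase. *Grik4* was at 10.9 ± 0.614 and *Gria1* at 9.41 ± 1.13 CPM per kilobase. From *Gria4* to *Gria1* the ranges of neighbours overlapped, although *Grik4* lay above *Gria1* in every control library. The range of *Gria4* (11.89 to 14.35) lay wholly above those of *Grik4* (10.08 to 11.76) and *Gria1* (7.85 to 10.51). That of *Gsg1l* (10.64 to 13.33) lay just above that of *Gria1*. The order of *Gria4* and *Gsg1l*, and of *Gsg1l* and *Grik4*, is not resolved. *Gria2* was at 7.40 ± 0.340, *Gria3* at 2.79 ± 0.0643, *Grik2* at 1.95 ± 0.181 and *Grik3* at 1.10 ± 0.202 CPM per kilobase, and none of these overlapped its neighbour. With the longest transcript as the length, *Gria2* moved up to rank 5, ahead of *Grik4* and *Gria1*, and the ranks of the other genes above and below them held. *Grik3*, the lowest, was still above 24.0% of tested genes.

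**Figure D1:**
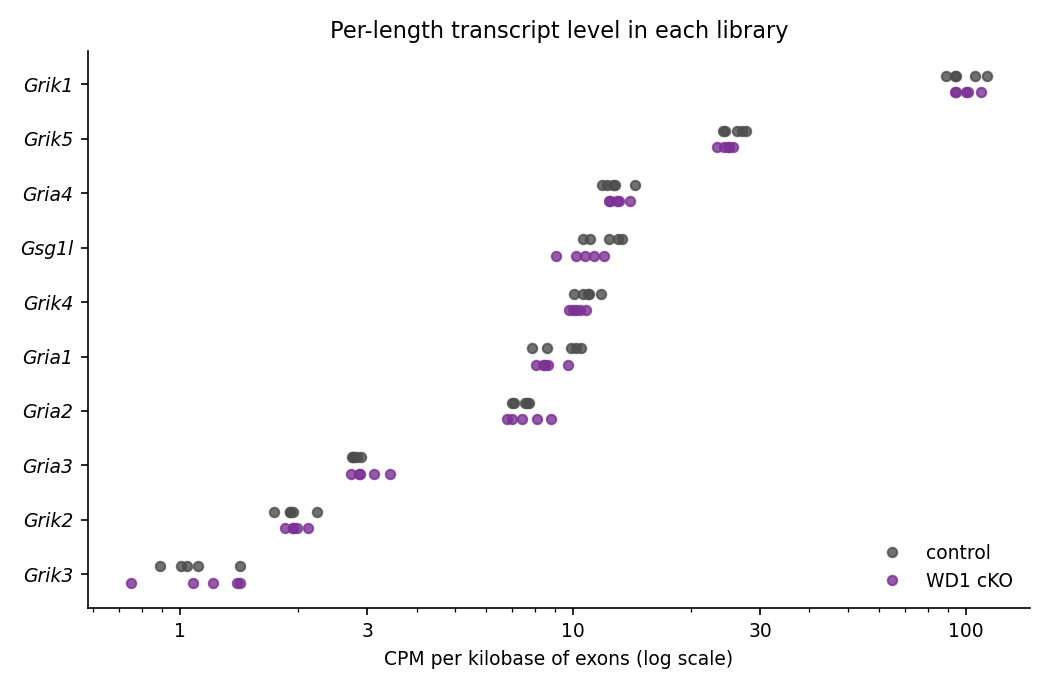
Level per kilobase of exons (CPM per kilobase, log axis) of the 10 genes, ordered by their control mean, with 1 point for each of the 5 control (grey) and 5 *WD1* cKO (purple) libraries. *Grik1* lies near 100 CPM per kilobase, *Grik5* near 25 and *Grik3* near 1, and the colours overlap for every gene.

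*Gsg1l* (ENSMUSG00000046182) had the lowest unadjusted p-value of the 10 genes. Control replicates 1 to 5 were at 52.3, 51.05, 48.6, 43.3 and 41.7 CPM. *WD1* cKO replicates 1 to 5 were at 47.0, 44.5, 42.0, 39.99 and 35.5 CPM. All 5 *WD1* cKO libraries were below the control median, 2 were below every control, and the groups overlapped. The mean was 47.4 ± 4.68 CPM (SD, n = 5) in control and 41.8 ± 4.41 CPM (SD, n = 5) in *WD1* cKO embryos. This is a log2 fold change of -0.18 (standard error 0.082, 95% confidence interval -0.36 to -0.0028), a difference of -11.8%. edgeR's quasi-likelihood test gave an unadjusted p of 0.0471 and an adjusted p of 0.9998 after Benjamini-Hochberg adjustment, and the two-sided exact permutation test of log2 CPM gave p = 0.0952. *Gsg1l* ranked 726 by p-value among the 17490 genes tested. In edgeR's test it did not pass the study's cut-off, an unadjusted p under 0.005 together with a log2 fold change beyond 0.15 in either direction. The study used DESeq2, whose Wald test here gave a log2 fold change of -0.18 (unadjusted p = 0.0374), also short of that cut-off.

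Within both groups, replicates 4 and 5 had less *Gsg1l* than replicates 1 to 3, by a log2 difference of -0.25 in control and -0.24 in *WD1* cKO libraries. Of the 5 blood markers 4 were also lower in replicates 4 and 5 of both groups, *Hbb-bs*, a beta-globin gene, for example at 588 to 1293 CPM in control replicates 1 to 3 and 88.8 to 108 CPM in control replicates 4 and 5, and the part of blood RNA in the *Gsg1l* values was not tested. Within each set the groups did not overlap, as for 11.5% of all genes tested among replicates 1 to 3 and 36.8% among replicates 4 and 5. Among replicates 1 to 3 the mean was 44.5 CPM in *WD1* cKO against 50.6 CPM in control libraries, and among replicates 4 and 5 it was 37.7 against 42.5 CPM. Taking both sets together, *WD1* cKO libraries lay below the controls of their set, as they did for 1.47% of all genes tested. The log2 fold change was -0.19 within replicates 1 to 3 (edgeR, unadjusted p = 0.00933) and -0.18 within replicates 4 and 5 (edgeR, unadjusted p = 0.0449). With the split as a covariate it was again -0.18 and the unadjusted p was 0.00134, which passed the study's cut-off together with 0.669% of all genes tested. With *Xist* as a covariate it was -0.16 (edgeR, unadjusted p = 0.117), the highest unadjusted p of the 20 alternative fits. The adjusted p stayed above 0.05 in each of the 20 alternative fits, with 0.266 as its lowest value. When each of the 10 libraries was left out in turn the fold change remained negative, from -0.23 to -0.13, and the unadjusted p was under 0.05 in 4 of the 10 fits.

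**Figure D2:**
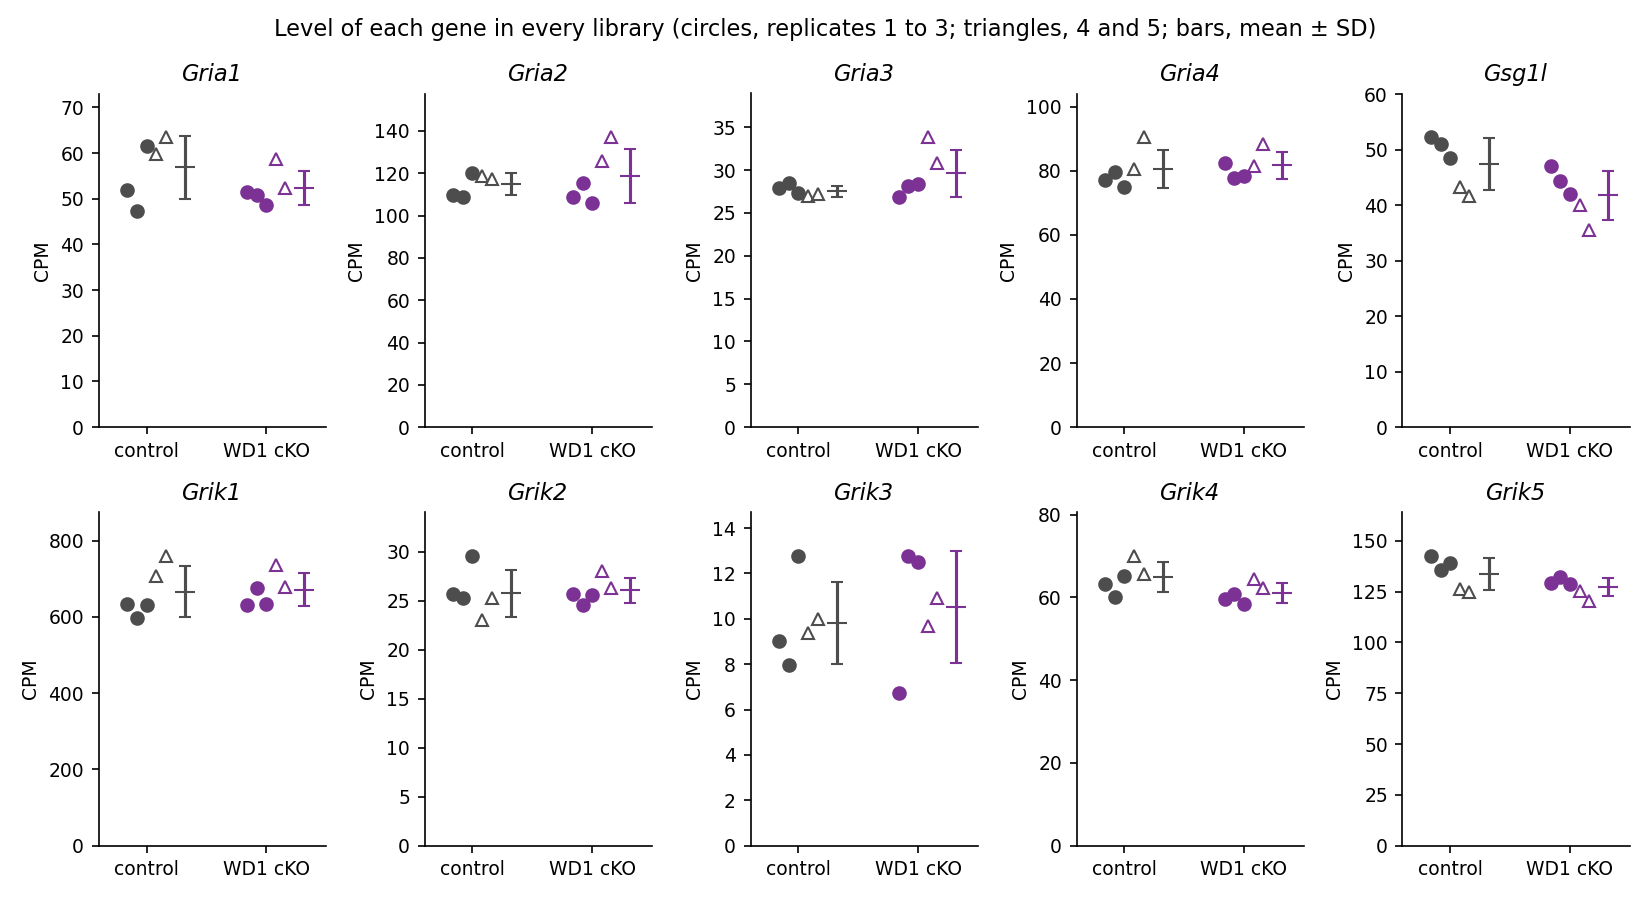
CPM of each gene in every library, with circles for replicates 1 to 3, open triangles for replicates 4 and 5, and a bar for the mean ± SD of the 5 libraries of a group. The groups overlap in all 10 panels, and in the *Gsg1l* panel the triangles lie below the circles in both groups, with *WD1* cKO lower within each symbol.

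None of the 10 genes had an adjusted p under 0.05 in edgeR's test, and 0.04% of all genes tested did. At an unadjusted p under 0.05 there was 1, *Gsg1l*, where 4.5% of all genes tested passed. In DESeq2's Wald test also 0 of the 10 genes had an adjusted p under 0.05, and 19 of all genes tested did. In edgeR's test no gene of the 10 passed the study's cut-off, which 0.383% of all genes tested passed. None had groups that did not overlap, as 1.06% did. Of the 10 genes, 4 were lower and 6 higher in *WD1* cKO embryos, with a median log2 fold change of 0.013, against 8719 lower and 8771 higher and a median of 0.0002 over all genes tested. Without control replicate 3, the split was 6 lower and 4 higher with a median of -0.0064.

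Among the AMPA subunits, *Gria1* (ENSMUSG00000020524), which encodes GluA1, differed most in the lower direction. Control replicates 1 to 5 were at 52.0, 47.4, 61.5, 59.9 and 63.5 CPM, and *WD1* cKO replicates at 51.4, 50.7, 48.8, 58.8 and 52.3 CPM. The 5 *WD1* cKO values all lay below the control median but within the control range. On the log2 scale the fold change was -0.12 (standard error 0.079) with an unadjusted p of 0.152 in edgeR and an exact permutation p of 0.278. Leaving out control replicate 2 lowered the unadjusted p to 0.0202, and leaving out control replicate 5 raised it to 0.346.

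*Gria2* (ENSMUSG00000033981), the subunit that limits calcium entry, was at 109.8, 108.9, 120.3, 118.7 and 117.3 CPM in control replicates 1 to 5. In *WD1* cKO replicates it was at 108.9, 115.3, 105.8, 125.8 and 137.1 CPM. The 2 highest values both belonged to *WD1* cKO replicates 4 and 5, while 1 *WD1* cKO value was the lowest of all. The log2 fold change of 0.044 (standard error 0.066) had an unadjusted p of 0.515 in edgeR and turned to -0.018 without *WD1* cKO replicate 5. It was -0.041 within replicates 1 to 3 and 0.16 within replicates 4 and 5 (edgeR, unadjusted p = 0.0172).

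*Gria3* (ENSMUSG00000001986), for GluA3, lies on the X chromosome. It was at 27.9, 28.5, 27.3, 26.9 and 27.1 CPM in control replicates 1 to 5, the tightest of the 10 genes, with a coefficient of variation of 2.30%. *WD1* cKO replicates 1 to 5 were at 26.8, 28.2, 28.3, 33.8 and 30.8 CPM, so that replicates 4 and 5 exceeded every control and replicate 1 was below every control. A log2 fold change of 0.10 (standard error 0.060) had an unadjusted p of 0.108 in edgeR. It was -0.0049 within replicates 1 to 3 and 0.25 within replicates 4 and 5 (edgeR, unadjusted p = 0.00957), and the difference between these sets was not tested. *Xist* was at 957 to 1167 CPM in control replicates 2 and 5. In *WD1* cKO replicates 1, 3, 4 and 5 it was at 973 to 1067 CPM, and in the other libraries at 3.38 to 4.84 CPM. With *Xist* as a covariate the log2 fold change of *Gria3* was 0.083 (edgeR, unadjusted p = 0.237).

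*Gria4* (ENSMUSG00000025892), for GluA4, was at 77.1, 79.7, 75.0, 80.5 and 90.5 CPM in control replicates and at 82.4, 77.8, 78.4, 81.5 and 88.2 CPM in *WD1* cKO replicates. Every *WD1* cKO value lay within the control range. Its log2 fold change was 0.020 (95% confidence interval -0.093 to 0.13, edgeR unadjusted p = 0.708). Without control replicate 3 it was -0.0045, and it was 0.040 within replicates 1 to 3 and -0.0052 within replicates 4 and 5.

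Of the kainate subunits, *Grik1* (ENSMUSG00000022935), for GluK1, was at 633, 598, 632, 707 and 761 CPM in control replicates 1 to 5. In *WD1* cKO replicates it was at 629.8, 675, 635, 736 and 679.5 CPM, all within the control range. Its log2 fold change of 0.010 had a 95% confidence interval from -0.14 to 0.16 (edgeR, unadjusted p = 0.883) and changed sign in 5 of the 20 alternative fits, with -0.0083 without control replicate 3. It was 0.057 within replicates 1 to 3 (edgeR, unadjusted p = 0.253) and -0.052 within replicates 4 and 5 (edgeR, unadjusted p = 0.418). Differences within that interval could not be told from 0 in the most abundant receptor gene.

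*Grik2* (ENSMUSG00000056073), for GluK2, was at 25.7, 25.3, 29.6, 23.0 and 25.3 CPM in control and at 25.7, 24.6, 25.6, 28.1 and 26.4 CPM in *WD1* cKO replicates, with its highest value in control replicate 3. The log2 fold change was 0.017 (edgeR, unadjusted p = 0.799), 0.071 without control replicate 3 and -0.023 without control replicate 4. It was -0.087 within replicates 1 to 3 (edgeR, unadjusted p = 0.252) and 0.17 within replicates 4 and 5 (edgeR, unadjusted p = 0.0634), where both *WD1* cKO values lay above both controls, and the difference between these sets was not tested. *Grik3* (ENSMUSG00000001985), for GluK3, was the least abundant and the most variable, at 9.01, 7.97, 12.8, 9.37 and 9.97 CPM in control and 6.73, 12.8, 12.5, 9.69 and 10.9 CPM in *WD1* cKO replicates. *WD1* cKO values went from below the lowest control up to the level of the highest. The log2 fold change was 0.11 with a 95% confidence interval from -0.26 to 0.47 (edgeR, unadjusted p = 0.541), and 0.22 without control replicate 3.

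The other kainate subunits, which need a partner to form a channel, both had lower means in *WD1* cKO embryos. *Grik4* (ENSMUSG00000032017), for GluK4, was at 63.3, 60.1, 65.2, 70.1 and 65.6 CPM in control and at 59.5, 60.8, 58.3, 64.3 and 62.3 CPM in *WD1* cKO replicates. All 5 *WD1* cKO values were below the control median and 2 were below every control. Between the groups it differed by -0.089 on the log2 scale (standard error 0.044), with an unadjusted p of 0.0665 in edgeR and an exact permutation p of 0.0794. Leaving out each library in turn kept it between -0.12 and -0.058, with the unadjusted p under 0.05 in 2 of the 10 fits.

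*Grik5* (ENSMUSG00000003378), for GluK5, was at 143, 136, 139, 126 and 125 CPM in control and at 129, 132, 128, 125 and 120.4 CPM in *WD1* cKO replicates. Here too all 5 *WD1* cKO values were below the control median, while 1 was below every control. The fold change on the log2 scale was -0.072 (standard error 0.043), with an unadjusted p of 0.121 in edgeR and an exact permutation p of 0.159. It was -0.099 within replicates 1 to 3 (edgeR, unadjusted p = 0.0181) and -0.029 within replicates 4 and 5 (edgeR, unadjusted p = 0.504). With the split of replicate numbers as a covariate the unadjusted p was 0.0194 for *Grik5* and 0.0211 for *Grik4*, and with *Gsg1l* 3 of the 10 genes were then under 0.05, where 7.33% of all genes tested were. With *Xist* as a covariate the unadjusted p in edgeR was 0.324 for *Grik5* and 0.177 for *Grik4*. The adjusted p of *Grik5* and *Grik4* was not under 0.05 in any of the 20 alternative fits.

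With the replicate number as a block, *Gsg1l*, *Grik4* and *Grik5* had an unadjusted p under 0.05 in edgeR, where 7.1% of all genes tested did, and *Gsg1l* passed the study's cut-off with 0.76% of them. Within replicates 1 to 3, *Gsg1l* and *Grik5* had an unadjusted p under 0.05 (4.94% of all genes tested) and none passed the cut-off (0.323%). Within replicates 4 and 5, *Gsg1l* with *Gria2* and *Gria3*, which were higher, had an unadjusted p under 0.05 (6.64%) and none passed the cut-off (0.808%). Without control replicate 3, no gene of the 10 had an unadjusted p under 0.05 (4.53%) or passed the cut-off (0.38%), and *Gsg1l* was at -0.17 (edgeR, unadjusted p = 0.0810).

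**Figure D3:**
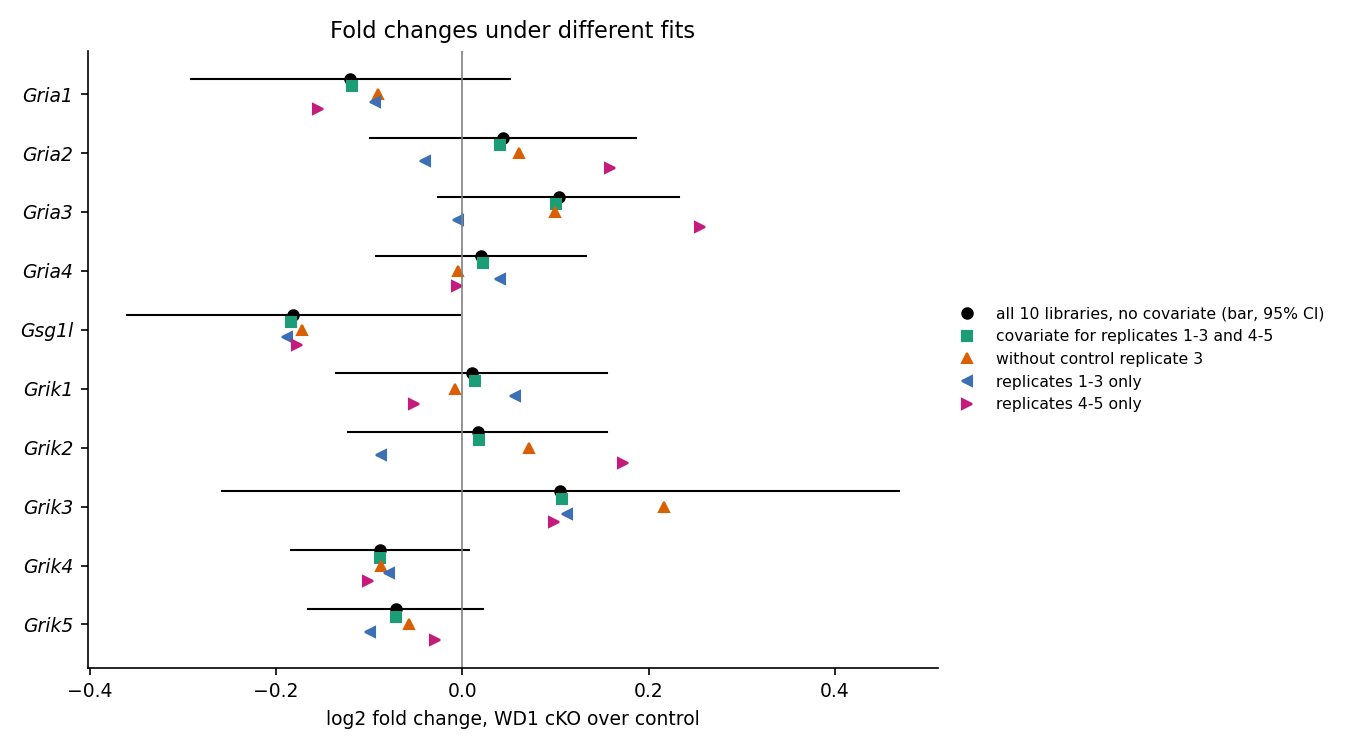
Log2 fold change of each gene, *WD1* cKO over control, with all 10 libraries (black, with its 95% confidence interval), with a covariate for replicates 1 to 3 and 4 to 5 (green), without control replicate 3 (orange), and within replicates 1 to 3 (blue) or 4 and 5 (pink). *Gsg1l*, *Gria1*, *Grik4* and *Grik5* lie left of 0 in all 5 fits and *Grik3* right of 0, while *Gria2*, *Gria3*, *Gria4*, *Grik1* and *Grik2* lie on both sides.

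The split of replicate numbers was also read gene by gene. In control libraries 7 of the 10 genes had replicates 4 and 5 outside the range of 1 to 3, where 34.9% of all genes tested did, and in *WD1* cKO libraries 8 did, where 35.1% did. For 4 genes this went the same way in both groups, as it did for 15.4% of all genes tested. *Grik1* and *Grik4* were higher in replicates 4 and 5, by log2 differences of 0.24 and 0.11 in control libraries, and *Grik5* was lower by -0.15 like *Gsg1l*. *Gria3* and *Grik2* had replicates 4 and 5 lower in control but higher in *WD1* cKO libraries.

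Summed per kilobase, the AMPA subunits were at 32.4 ± 1.94 CPM per kilobase (SD, n = 5) in control and 32.2 ± 2.00 (SD, n = 5) in *WD1* cKO embryos. The kainate subunits summed to 139 ± 9.01 and 138 ± 6.56 CPM per kilobase. Kainate transcripts were thus 4.29 ± 0.103 times as abundant as AMPA transcripts in control embryos and 4.28 ± 0.195 times in *WD1* cKO embryos. The ranges of both groups overlapped for each of these quantities. *Grik1* made up 71.2% ± 2.50 of the kainate sum in control and 72.4% ± 1.24 in *WD1* cKO libraries. The partner-dependent *Grik4* and *Grik5* together made up 26.6% ± 2.30 and 25.3% ± 1.21.

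In the AMPA sum, *Gria4* held the largest share in every library, at 39.5% ± 2.00 in control and 40.2% ± 1.51 in *WD1* cKO embryos. *Gria1* held 29.0% ± 2.11 and 26.9% ± 1.23, *Gria2* 22.9% ± 0.853 and 23.6% ± 1.26, and *Gria3* 8.66% ± 0.687 and 9.31% ± 0.512. These shares depend on the lengths used, and the share of *Gria2* in control embryos was 26.8% with the longest transcript of each gene. Set against the AMPA sum, *Gsg1l* was at 43.4, 42.8, 38.0, 33.4 and 30.3% in control replicates 1 to 5 and at 38.3, 36.6, 35.5, 29.8 and 26.1% in *WD1* cKO replicates. The means were 37.6% ± 5.76 and 33.3% ± 5.09, and 2 *WD1* cKO libraries were below every control. The SD includes the split of replicate numbers, and within replicates 1 to 3 the means were 41.4% and 36.8% with overlapping groups, and within replicates 4 and 5 31.8% and 28.0% with both *WD1* cKO values below both controls.

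**Figure D4:**
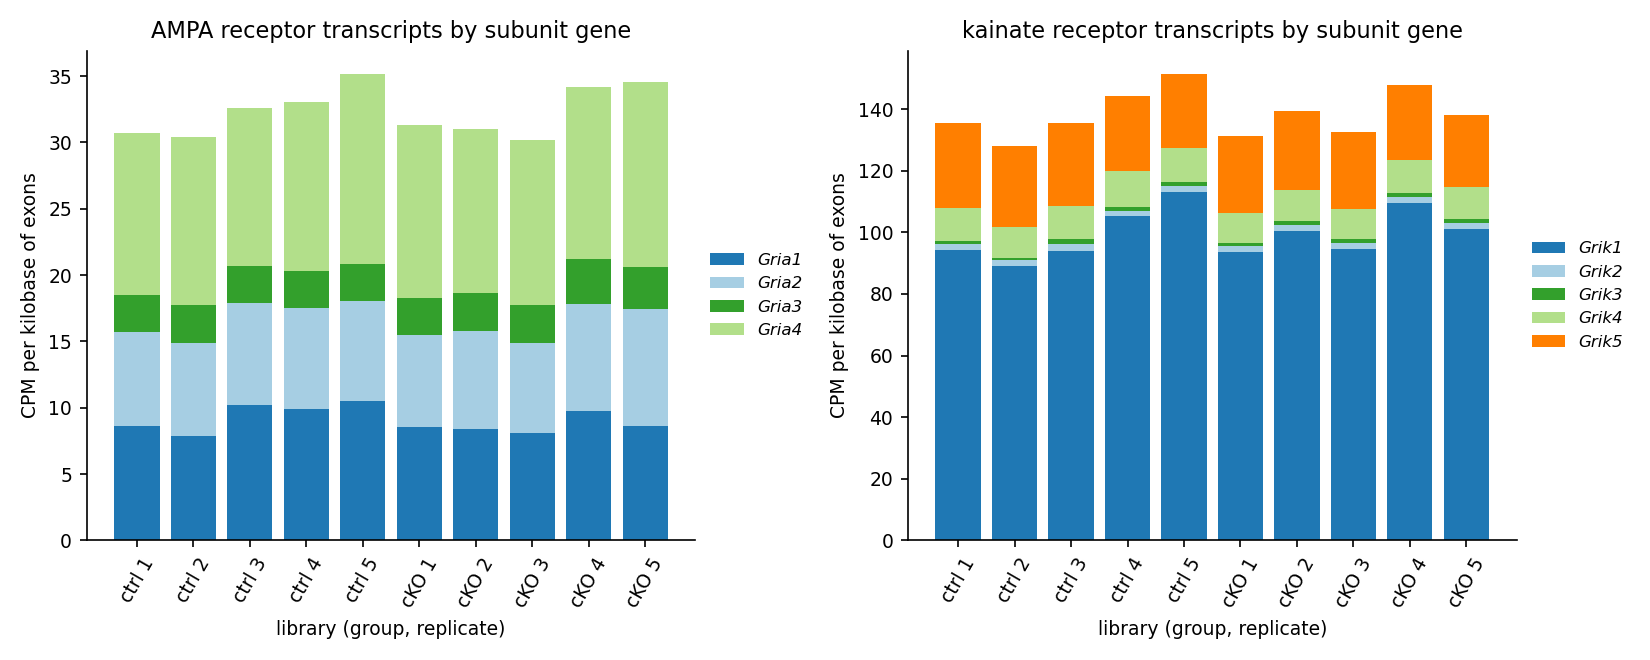
Stacked level per kilobase of exons (CPM per kilobase) of the AMPA (left) and kainate (right) subunit genes in each of the 5 control (ctrl) and 5 *WD1* cKO (cKO) libraries. The AMPA sums lie between 30.2 and 35.2 and the kainate sums between 128 and 151, with *Gria4* the largest AMPA block and *Grik1* the largest kainate block in every library.

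The genes whose centred log2 CPM followed *Gsg1l* most closely over the 10 libraries were *4931428F04Rik*, *Bnc2*, a zinc finger gene, and *St3gal1*, a sialyltransferase. Their root mean square distance from *Gsg1l* was 0.047, 0.054 and 0.059 on the log2 scale, against a median of 0.18 over the 12749 other genes with mean counts of 100 or more. Their own log2 fold changes were -0.13, -0.13 and -0.087, none with an unadjusted p under 0.05 in edgeR. Of the receptor genes *Grik5* was nearest, at rank 182 and a distance of 0.10, and *Grik3* was at rank 12336. The AMPA subunits ranked from 9687 to 10880. The likeness is a description over libraries that share the split of replicate numbers, in which *Gsg1l* and *Grik5* go the same way.

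Genes that serve these receptors were described through 6 lists holding 56 genes, of which 52 passed the filter, with *Gsg1*, *Gsg1l2*, *Grm2* and *Grm6* too low. At an unadjusted p under 0.05 in edgeR, 6 of the 52 were lower and 1 was higher in *WD1* cKO embryos, where 2.38% and 2.12% of all genes tested were. None had an adjusted p under 0.05 in edgeR's test, and DESeq2's Wald test gave the same number, 7, at an unadjusted p under 0.05. In all, 36 were lower and 16 higher with a median log2 fold change of -0.037. Without control replicate 3 the numbers were 27 and 24, with a median of -0.0091, and 4 lower and 2 higher genes had an unadjusted p under 0.05 in edgeR. In that fit 354 lower and 434 higher of the 17390 genes tested did, which is 4.53%. The higher list gene gained there was *Cacng2*, the TARP stargazin, with a log2 fold change of 0.33 (edgeR, unadjusted p = 0.0279) against 0.22 with all libraries (edgeR, unadjusted p = 0.157). The lower gene gained was *Grip1*, a PDZ scaffold of AMPA receptors, at -0.11 (edgeR, unadjusted p = 0.0389) against -0.088 (edgeR, unadjusted p = 0.0870), and both were named after their values were seen. Of the 56 genes 22 had their highest level of all 10 libraries in control replicate 3, as did 2444 of the 17490 genes tested, and the part of spinal cord or connective tissue RNA in this was not tested.

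Of the accessory subunits and assembly factors of AMPA receptors, 14 of 18 were lower, with a median log2 fold change of -0.078, and 10 of 17 were lower without control replicate 3, with a median of -0.030. The most abundant per kilobase was *Cnih2*, a cornichon that slows the closing of AMPA receptors, at 52.7 ± 4.68 CPM per kilobase in control libraries (SD, n = 5). *Cnih2* spanned 64.8 to 81.1 CPM in control libraries and 57.7 to 70.5 CPM in *WD1* cKO libraries, and its log2 fold change was -0.15 (edgeR, unadjusted p = 0.0472). Its highest value was in control replicate 3, and without that library the log2 fold change was -0.10 (edgeR, unadjusted p = 0.129). *Cacng7*, an atypical member of the transmembrane AMPA receptor regulatory proteins (TARPs), followed at 22.8 ± 1.23 CPM per kilobase with a log2 fold change of -0.084 (edgeR, unadjusted p = 0.165).

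*Cacng3*, the TARP γ-3, spanned 3.70 to 6.94 CPM in control libraries and 3.51 to 4.42 CPM in *WD1* cKO libraries. Its log2 fold change was -0.42 (edgeR, unadjusted p = 0.0265), and -0.32 without control replicate 3 (edgeR, unadjusted p = 0.0750). *Porcn*, the acyltransferase of Wnt proteins that also binds AMPA receptors, spanned 46.6 to 51.3 CPM in control libraries and 43.7 to 47.2 CPM in *WD1* cKO libraries. There 4 of 5 *WD1* cKO libraries were below every control, with a log2 fold change of -0.098 (edgeR, unadjusted p = 0.0264) that was -0.11 without control replicate 3 (edgeR, unadjusted p = 0.0143).

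Of the accessory subunits and ligands of kainate receptors, 1 of 4 was lower and 3 were higher. *Neto2*, the auxiliary subunit that slows GluK1 and GluK2 desensitization, was abundant at 31.8 ± 0.720 CPM per kilobase in control libraries (SD, n = 5). It was at 199.8, 198, 189.5, 191 and 194.5 CPM in control replicates and at 189.1, 188, 186, 188 and 172 CPM in *WD1* cKO replicates. This was the only gene of the lists and of the 10 receptor genes whose groups did not overlap, the highest *WD1* cKO value lying just under the lowest control, and *WD1* cKO libraries lay below all controls in 0.566% of all genes tested. *Neto2* had a log2 fold change of -0.076 (standard error 0.034, edgeR unadjusted p = 0.0443, adjusted p = 0.9998).

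Its relative *Neto1* was at 2.89 ± 0.222 CPM per kilobase, with a log2 fold change of 0.10 (edgeR, unadjusted p = 0.120). *C1ql2*, a secreted C1q-like protein that recruits kainate receptors, was the gene with the unadjusted p under 0.05 in the higher direction. It spanned 0.147 to 0.659 CPM in control libraries and 0.457 to 1.05 CPM in *WD1* cKO libraries, on 4 to 27 counts. Its log2 fold change was 0.98 (standard error 0.33, edgeR unadjusted p = 0.0110, adjusted p = 0.9998), and 4 of 5 *WD1* cKO libraries were above every control.

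Of the receptor scaffolds and trafficking proteins, 9 of 12 were lower, with a median log2 fold change of -0.041. Neuronal pentraxins cluster AMPA receptors at synapses from outside the cell. The most abundant per kilobase were *Nptx2* at 47.0 ± 1.88 and the pentraxin receptor *Nptxr* at 40.5 ± 3.44 CPM per kilobase in control libraries (SD, n = 5). *Nptx1* was lower there, at 17.1 ± 1.42 CPM per kilobase. *Nptxr* spanned 188 to 227 CPM in control libraries and 179 to 199 CPM in *WD1* cKO libraries, with a log2 fold change of -0.15 (edgeR, unadjusted p = 0.0172) that was -0.13 without control replicate 3 (edgeR, unadjusted p = 0.0452). *Nptx2* had a log2 fold change of -0.067 (edgeR, unadjusted p = 0.146). *Grip2*, a PDZ scaffold of GluA2 and GluA3, had one of -0.22 (edgeR, unadjusted p = 0.0305), and of -0.14 without control replicate 3 (edgeR, unadjusted p = 0.0784).

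Of the 3 editing enzymes, *Adarb1*, which encodes the ADAR2 that edits the Q/R codon shown above, was at 85.9 ± 5.57 CPM (SD, n = 5) in control and 87.9 ± 2.05 CPM (SD, n = 5) in *WD1* cKO embryos. Its log2 fold change was 0.032 (95% confidence interval -0.062 to 0.13, edgeR unadjusted p = 0.474). *Adar* had a log2 fold change of -0.060 (edgeR, unadjusted p = 0.152). *Adarb2*, whose product has no known editing activity, was at 2.16 CPM in control replicate 3 and at 0.463 to 1.12 CPM in *WD1* cKO libraries.

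The other glutamate receptor families had no gene with an unadjusted p under 0.05 in edgeR. Of 9 NMDA and delta receptor genes 6 were lower, with a median log2 fold change of -0.024, and of 6 metabotropic receptor genes 4 were lower, with a median of -0.027. Without control replicate 3 the metabotropic genes had 1 lower and 5 higher, with a median of 0.019. *Grin1*, the obligatory NMDA receptor subunit, was at 11.7 ± 0.777 CPM per kilobase in control libraries (SD, n = 5) with a log2 fold change of -0.024, *Grin3a* was at 3.70 ± 0.172 with -0.043, *Grm7* at 12.5 ± 0.724 with 0.030 and *Grm3* at 3.68 ± 0.909 with 0.081. The widest fold changes in these families, chosen after their values were seen, belonged to *Grin2b* at -1.19 (edgeR, unadjusted p = 0.0760) and *Grm5* at -0.71 (edgeR, unadjusted p = 0.135), and both had their highest level in control replicate 3. *Grin2b* was at 10.9 CPM and *Grm5* at 19.4 CPM there, and the highest *WD1* cKO values were 4.71 and 5.22 CPM. Without that library the log2 fold changes were -0.53 and 0.095.

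**Figure D5:**
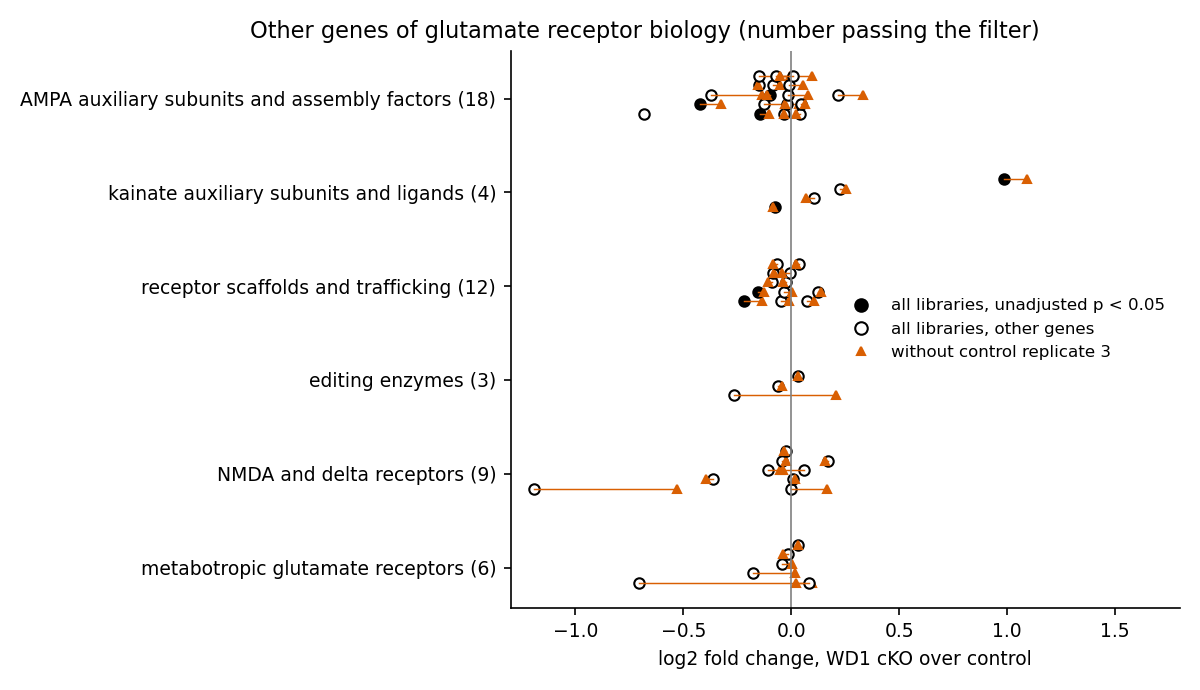
Log2 fold change, *WD1* cKO over control, of the 52 genes in 6 lists that passed the filter, with all libraries (circles, filled where the unadjusted p was under 0.05) and without control replicate 3 (orange triangles, joined by a line). The longest lines belong to *Grm5*, *Grin2b* and *Adarb2*, and *C1ql2* is the filled circle near 1, while *Shisa8*, the circle without a triangle, did not pass the filter in the smaller set.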

How the data were processed

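Stranded mRNA libraries were made from E18.5 DRG, 5 of control and 5 of *WD1* cKO embryos. The authors aligned reads to GRCm39 with STAR 2.7.8a, counted them with featureCounts 2.0.1 and deposited raw counts per gene and library. The strand setting of the counting is not given in the sources used here, so genes overlapping on opposite strands are uncertain. Libraries were grouped by title. Symbols matched 52081 of 55414 identifiers through GENCODE M21 (GRCm38), which also gave exon lengths. Since the builds differ, no coordinates are given.

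Genes reaching 10 counts in 5 or more libraries were tested with edgeR 4.0.16 (R 4.3.3), using TMM scaling and the quasi-likelihood test with Benjamini-Hochberg adjustment over 17490 genes. The precision of a value is limited by the spread of the 5 libraries, which nothing ties to separate litters, more than by counting. CPM were scaled by the TMM library sizes. Two-sided exact permutation tests used log2 CPM (prior count 1), and DESeq2 1.42.0 was an alternative. The edgeR and DESeq2 fits were tested on simulated counts, which held no split of replicate numbers, sex difference or library standing apart. Libraries of a group differed by more than sampling noise, so each counted as 1 replicate.

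The genes, lists and split of replicate numbers were chosen with earlier results of these data known. Named genes are the 10 receptor genes, *Dach1*, list genes with an unadjusted p under 0.05 and the 2 highest per kilobase of each list. The 3 genes most like *Gsg1l* are also named, as are markers where a library stands apart or a marker list moved. The list genes *Cacng2*, *Grip1*, *Nptx1*, *Adarb2*, *Grin2b* and *Grm5* are named besides these.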

Additional observations from a re-analysis of the deposited data

Results flagged for a closer look

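*Neto2* in *WD1* cKO replicate 5 was at 172 CPM, while the other 4 *WD1* cKO libraries were at 186 to 189 CPM, a gap of 0.801 of the range of the group by Dixon's test. Of 54 groups of 5 libraries looked at, over only part of the genes named above, 1 held such a library, where chance gives about 2.7. *Grm5* and *Adarb2* were not among the genes looked at. Both peaked in control replicate 3, with 19.4 and 2.16 CPM, and no other control library exceeded 5.065 and 0.956 CPM. The count of 1 therefore leaves out libraries that stand apart in other genes. *WD1* cKO replicate 5 also held the lowest *Gsg1l* value.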

How the results depend on the processing

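No receptor gene had an adjusted p under 0.05 in any of the 20 alternative fits, and *Gsg1l*, *Gria1*, *Grik3*, *Grik4* and *Grik5* kept their direction in all of them. *Gsg1l* ranged from -0.23 to -0.13 when a library was left out. The replicate numbers did not qualify as pairs, since deviations of same-numbered libraries correlated at 0.434 to 0.528 for 4 numbers but at -0.0565 for number 2, and 3 of 5 controls correlated best with their own number. With the number as a replicate block, 1 receptor gene (*Gsg1l*, log2 fold change -0.18, edgeR unadjusted p = 0.000543) passed the study's cut-off, 2 subunits had an unadjusted p under 0.05 and 133 genes in all passed the cut-off. The covariate for replicates 1 to 3 and 4 to 5 gave 1, 2 and 117, and 11 genes with an adjusted p under 0.05 in place of 7. No subunit had an unadjusted p under 0.05 with all libraries, 0 to 2 did when 1 library was left out, 1 within replicates 1 to 3 and 2 within replicates 4 and 5, which were chosen after seeing the data. Of all genes tested, 4.5% did with all libraries, 4.94% within replicates 1 to 3 and 6.64% within replicates 4 and 5. With the block it was 7.1%, and with the covariate 7.33%.

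Genes with an adjusted p under 0.05 numbered 4 among genes of mean count 100 or more, 19 in DESeq2's Wald test, 4 with *Xist* as a covariate, 3 to 6 with a library left out, 3 within replicates 1 to 3 and 2 within replicates 4 and 5. The cut-off was passed by 67 genes, by 128 with no filter on low counts, by 52 to 96 with a library left out and by 133 within replicates 4 and 5. Of the list genes, 7 had an unadjusted p under 0.05, 3 with *Xist* as a covariate, 4 to 9 with a library left out, 2 within replicates 1 to 3 and 4 within replicates 4 and 5. With all libraries this was 13.5% of the list genes tested, where 4.5% of all genes tested passed. It was 4.0% against 4.94% within replicates 1 to 3, and 8.16% against 6.64% within replicates 4 and 5.

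Signs of near-zero fold changes turned. *Gria2* ranged from -0.018 to 0.082 with a library left out and was -0.041 within replicates 1 to 3, and *Gria3* was -0.0049 there. *Gria4* was -0.023 with *Xist*, -0.0052 within replicates 4 and 5 and from -0.013 to 0.065 with a library left out (-0.0045 without control replicate 3). *Grik1* was -0.052 within replicates 4 and 5 and from -0.027 to 0.062 with a library left out (-0.0076, -0.0265 and -0.0083 without control replicates 1, 2 and 3, -0.0252 without *WD1* cKO replicate 4). *Grik2* was -0.087 within replicates 1 to 3 and from -0.023 to 0.071 with a library left out (-0.010 without *WD1* cKO replicate 4).

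With the longest transcript as length, kainate over AMPA was 5.61 in control and 5.58 in *WD1* cKO embryos, the share of *Gria2* 26.8% and 27.4%, that of *Grik1* 78.2% and 79.2%, and *Gsg1l* over the AMPA sum 29.3% and 25.8%. With exon lengths they were 4.29 and 4.28, 22.9% and 23.6%, 71.2% and 72.4%, and 37.6% and 33.3%, and leaving out a library kept those at 4.26 to 4.32 and 4.23 to 4.35, 22.6% to 23.2% and 23.1% to 23.9%, 70.4% to 71.7% and 72.0% to 72.7%, and 36.1% to 39.4% and 32.01% to 35.04%. The causes of these changes were not tested. The 5 libraries of a group limit what can be seen: the 95% confidence intervals of the 10 genes reached from -0.36 to 0.47.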
